A study of Mus musculus with 24 samples.

Results

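The proteasome is the protein machine that degrades most short-lived and damaged proteins of a cell. The genes described here are those whose symbol begins with Psma, Psmb, Psmc, Psmd, Psme, Psmf or Psmg and a number, taken from probe sets (groups of oligonucleotides that read 1 transcript) annotated to a single gene. Of 8251 genes with such a probe set, 46 met this rule, with 58 probe sets in all, and each gene was represented by its probe set with the highest mean over all arrays. The inducible subunits Psmb8, Psmb9 and Psmb10 and the activator subunit Psme1 are described apart from the other 42. Psme2, the partner of Psme1, was read only by probe sets annotated to Psme2b as well, so no value is given for it. Psmc3ip and Psme3ip1 met the rule by name but encode proteins that interact with subunits and are not subunits themselves.

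The signals came from 24 Affymetrix mouse arrays. Of these, 22 held total RNA of 11 lines grown from lung tumours of transgenic mice aged 8 months that carried both c-Myc, a growth-promoting transcription factor, and c-Raf, a kinase of the mitogen pathway. The lines are named A2B1, A2C12, B3, betaD5, betaD10, cRAF_cMYC, gammaA3, gammaA7, gammaB8, gammaD1 and gammaD12, were kept in medium with 10% calf serum and were passaged weekly up to 50 times. The control was alveolar type II cells, the surfactant-making cells of the lung, isolated from healthy animals without the transgenes and measured on 2 arrays. The labels give the control cells no culture step, so effects of transformation and of culture cannot be told apart. They also do not say which promoter drove the transgenes, whether a line is a clone, or whether controls were pooled from several animals. Of the lines, 5 had 3 arrays, A2B1 had 2 and 5 had 1. Nothing in the labels says that repeat arrays were separate cultures. A p-value for a single line, or for differences among lines, therefore rests on a spread among arrays that may be technical. A p-value for the lines as a whole against the control rests on the spread among 11 line means and between 2 control arrays.

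In the proteasome, rings of alpha and beta subunits form a barrel, the core, whose active sites lie on the beta subunits Psmb5, Psmb6 and Psmb7. A regulatory particle on its end, with a base of ATPases (Psmc genes) and a lid (Psmd genes), binds ubiquitin-tagged proteins, unfolds them and threads them into the core. Under interferon, and constitutively in many leukocytes, Psmb8, Psmb9 and Psmb10 take the places of Psmb5, Psmb6 and Psmb7 to form the immunoproteasome, which cuts peptides suited to presentation on MHC class I molecules. Psme1 and Psme2 form a ring-shaped activator that opens the core and is also induced by interferon.

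Promoter sequence from RefSeq (GRCm38.p6, 250 bases before to 50 after the annotated start, written along each gene's own strand) is shown for 2 inducible subunits that were low in the lines, for Psme1, and for Psmb6, a constitutive subunit that was high. The capitals mark, for each, a match to 1 of the motifs counted further on: a STAT site in Psmb8, a CCAAT box on the opposite strand in Psmb9, an interferon response core in Psme1 and an antioxidant response core in Psmb6. The windows are chr17:34197945-34198244 on the plus strand for Psmb8, chr17:34187281-34187580 on the minus strand for Psmb9, chr14:55578244-55578543 on the plus strand for Psme1 and chr11:70525107-70525406 on the plus strand for Psmb6.
Psmb8: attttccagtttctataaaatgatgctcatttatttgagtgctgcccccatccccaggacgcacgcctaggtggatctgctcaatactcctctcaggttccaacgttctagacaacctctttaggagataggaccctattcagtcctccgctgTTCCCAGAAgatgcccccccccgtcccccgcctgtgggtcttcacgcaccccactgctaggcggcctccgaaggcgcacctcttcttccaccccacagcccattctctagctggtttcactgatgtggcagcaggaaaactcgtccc
Psmb9: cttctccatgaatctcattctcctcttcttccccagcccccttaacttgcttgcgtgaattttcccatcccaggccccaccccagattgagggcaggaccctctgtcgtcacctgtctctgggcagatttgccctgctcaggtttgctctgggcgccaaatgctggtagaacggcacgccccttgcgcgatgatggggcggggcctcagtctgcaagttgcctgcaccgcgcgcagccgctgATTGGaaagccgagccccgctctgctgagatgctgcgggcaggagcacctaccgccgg
Psme1: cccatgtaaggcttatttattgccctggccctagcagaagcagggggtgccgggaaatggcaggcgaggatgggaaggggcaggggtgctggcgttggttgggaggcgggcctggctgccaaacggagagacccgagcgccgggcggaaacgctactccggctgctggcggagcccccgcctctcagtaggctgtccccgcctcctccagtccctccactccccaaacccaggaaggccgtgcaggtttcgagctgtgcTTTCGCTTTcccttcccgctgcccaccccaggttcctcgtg
Psmb6: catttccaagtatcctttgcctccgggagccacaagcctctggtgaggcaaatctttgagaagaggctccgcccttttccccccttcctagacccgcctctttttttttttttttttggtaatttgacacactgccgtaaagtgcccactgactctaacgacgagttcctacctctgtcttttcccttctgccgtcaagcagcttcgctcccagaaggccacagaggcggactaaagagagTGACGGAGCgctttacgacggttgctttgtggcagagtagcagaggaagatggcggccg

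The inducible pair lies inside the class II region of the mouse MHC on chromosome 17, where the order is Psmb9 (34182030 to 34187330), Tap1 (34187556 to 34197225), Psmb8 (34198195 to 34201454) and Tap2 (34204479 to 34216321). Psmb9 is read from the minus strand and Tap1, a subunit of the peptide transporter, from the plus strand. Their starts are 226 bases apart, so the Psmb9 window above spans the whole stretch between them. Psmb6 lies on chromosome 11 (70525324 to 70527858), and Psme1 on chromosome 14 (55578494 to 55581527). The listed start of Psmb6 lies upstream of the start on which its printed window was set, and inside that window.

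In the tumour lines, most constitutive proteasome genes stood higher than in the control cells, while Psmb8 and Psmb9 stood far lower. Of the 40 constitutive genes, assembly factors and interactors that could be tested, 22 (55%) were higher by at least 2-fold at a limma adjusted p under 0.05, against 16.7% of all 5825 tested genes. Psmg3 alone was lower, against 21.3% of all genes, and 17 did not meet both criteria. Their median log2 difference, lines minus control, was 1.03 (range -1.48 to 2.16), beside a median of -0.03 over all tested genes. At an adjusted p under 0.05 with no fold limit, 30 (75%) were higher, against 30.4% of all genes, and 1 was lower, against 33.9%. All 11 lines lay above both control arrays for 28 of the 40 (70%), against 25.8% of all genes. Levels are log2(signal + 32), on arrays that had been scaled to a common trimmed mean, so a difference is a change in a gene's share of the RNA measured. In RNA of bulk samples, fewer cells of a type and less RNA per cell cannot be told apart.

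**Figure D1:**
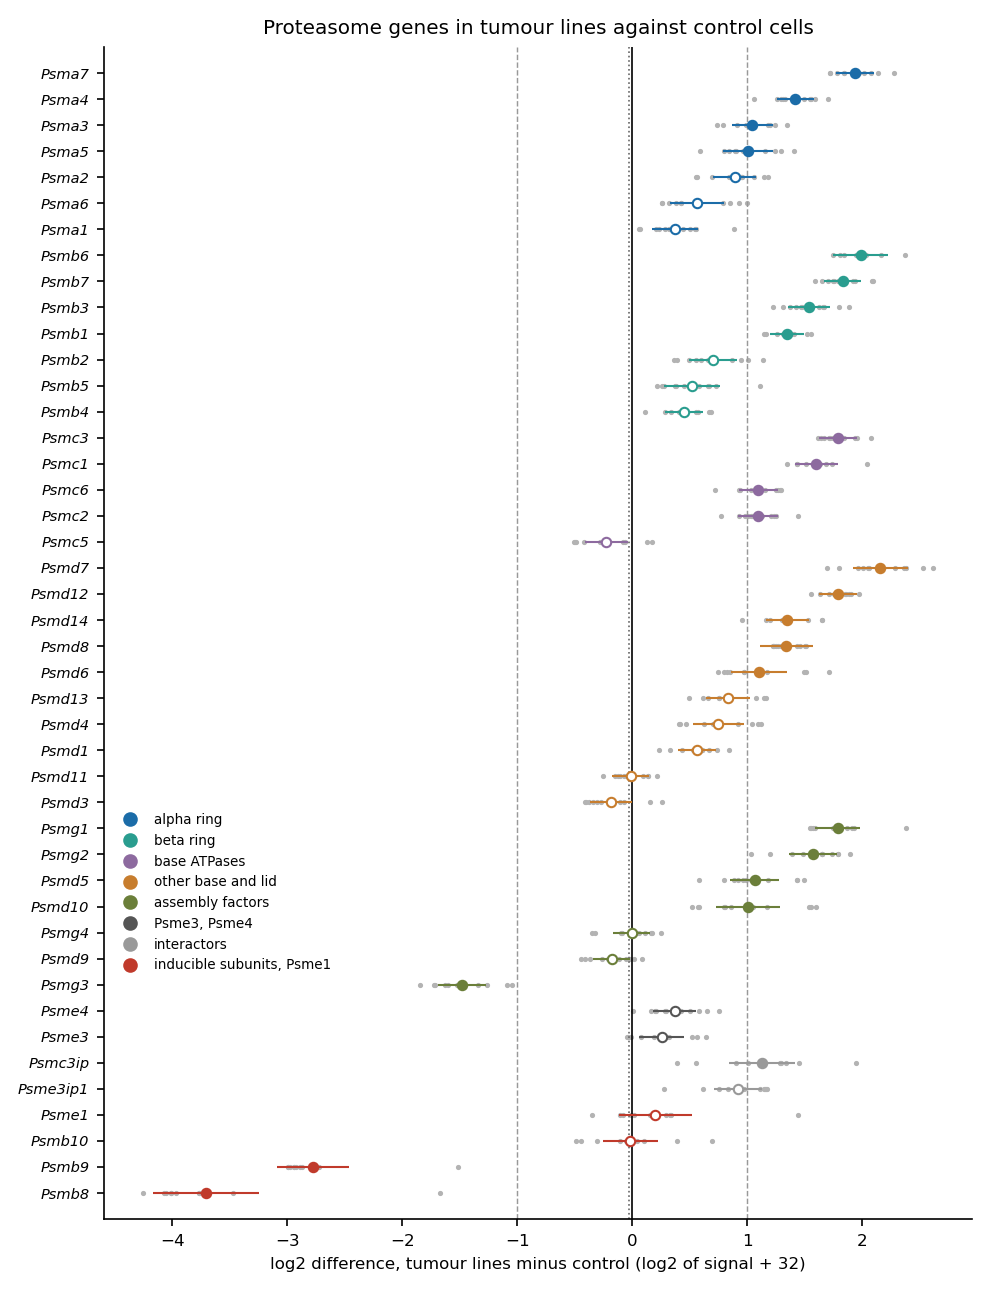
Log2 difference between tumour lines and control, on the x axis (log2 of signal + 32), for each of the 44 tested proteasome genes, grouped by role. Large points are the mean over 11 lines minus the mean of 2 control arrays with its standard error, filled where the gene passed the test at 2-fold; grey dots are single lines, dashed lines mark a 2-fold difference and the dotted line the median of all tested genes (-0.03). Most constitutive genes lie right of 0, and Psmb8 and Psmb9 lie left of it with line A2B1 as the dot nearest to 0.

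The control arrays differed from each other in these genes. Control 1 gave the higher level for 33 of the 40, and the median difference, control 2 minus control 1, was -0.49, beside -0.01 over all tested genes. With control 1 left out, the median log2 difference of the 40, lines minus control, was 1.14, and with control 2 left out it was 0.81. Without control 2 the 6 genes Psma3, Psma5, Psmc2, Psmc6, Psmd6 and Psmd8 fell under the criteria. Without control 1 the 3 genes Psmd5, Psmd10 and Psmc3ip did so, and Psma2, Psmb2, Psmb5, Psmd4, Psmd13 and Psme3ip1 met them. The labelled cell type was poorly marked on control 1. All 7 measured markers of type II cells were lower there: summed over them, the signal was 1452 on control 1 and 29811 on control 2. Their part in the difference between controls was not tested. Genes of dividing cells moved with the constitutive proteasome genes. Of 13 tested markers of proliferation, 13 were called higher in the lines (median log2 difference 2.51), against 16.7% of all genes. The summed signals of the measured markers were 4063 and 2533 on the controls and 13301 to 23146 in the lines. The part of cell division in the proteasome result was not tested.

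The alpha ring, which gates the entrance to the core, had 4 of 7 genes called higher, with a median log2 difference of 1.01. Psma7 had the largest rise of the ring. Its signal was 844 on control 1 and 619 on control 2, and the line means ran from 2460 in gammaD1 through a median of 2890 to 3630 in betaD5. The lowest line was thus well above the higher control. The log2 difference was 1.94 (SE 0.17, limma adjusted p = 1.3e-07). The other log2 differences called were 1.42 for Psma4, 1.05 for Psma3 and 1.01 for Psma5. The calls of Psma3 and Psma5 were lost without control 2 (0.78 and 0.60) and after quantile normalization (0.62 and 0.94). Psma2 (0.89) and Psma6 (0.56) passed the adjusted p but not the fold, and Psma1 (0.37, limma adjusted p = 0.12) passed neither.

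In the beta ring, 4 of 7 constitutive genes were called higher, with a median log2 difference of 1.35. The active-site subunits differed in how far they stood from the control. Psmb6, the caspase-like subunit that Psmb9 replaces, gave signals of 866 and 319 on controls 1 and 2, and line means from 1859 in gammaA3 through a median of 2176 to 2939 in A2C12. No line overlapped the controls, which were themselves far apart. Its log2 difference was 1.99 (SE 0.24, limma adjusted p = 4.1e-06), and 1.31 without control 2.

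Psmb7, the trypsin-like subunit that Psmb10 replaces, gave 706 and 528 on the controls and line means from 1938 in A2B1 through a median of 2199 to 2712 in gammaA3. Every line lay above both controls, and the log2 difference was 1.83 (SE 0.16, limma adjusted p = 1.6e-07). Psmb5, the chymotrypsin-like subunit that Psmb8 replaces, gave 1757 and 853 on the controls and line means from 1431 in gammaD1 through a median of 1701 to 2690 in A2C12. Here 5 of the 11 lines lay above both controls and the others lay between them. The log2 difference was 0.52 (SE 0.24) and did not pass (limma adjusted p = 0.072), and another, dim probe set of Psmb5 stood at -1.35. The result turned on the control kept: without control 1 the difference was 1.03 and was called (limma adjusted p = 0.0051), and without control 2 it was 0.01. Of the subunits without an active site, Psmb3 (1.54) and Psmb1 (1.35) were called higher. Psmb2 (0.70) and Psmb4 (0.45) passed the adjusted p alone. Another probe set of Psmb1 gave 0.63, so that its call depended on the probe set.

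In the regulatory particle, 4 of 5 tested ATPase genes were called higher, with a median log2 difference of 1.10. They were Psmc3 (1.79), Psmc1 (1.60), Psmc6 (1.10) and Psmc2 (1.09). The last pair lost the call without control 2 (0.91 and 0.83) and after quantile normalization (0.80 and 0.95). Psmc5 was the exception: its signal was 623 and 525 on the controls and from 393 in gammaA3 through a median of 486 to 650 in A2C12 in the lines. The groups overlapped, and its log2 difference was -0.22 (SE 0.19, limma adjusted p = 0.31). Centring each array on its median turned that value to 0.31. The sixth ATPase, Psmc4, had signals of 4.10 to 25.0 in the lines and 20.7 and 7.42 on the controls and was too dim to be tested.

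Of the other base and lid genes, 5 of 10 tested were called higher, with a median log2 difference of 0.97. Psmd7, the lid subunit that pairs with the deubiquitinating enzyme Psmd14, had the largest rise of all 44 tested genes. Its signal was 969 and 566 on the controls, and the line means ran from 2499 in A2C12 through a median of 3243 to 4706 in betaD5. All line means were above both controls, and the difference was 2.16 (SE 0.24, limma adjusted p = 1.5e-06). Psmd14 itself stood at 1.35 (SE 0.19). The remaining called genes of the lid were Psmd12 (1.79), Psmd8 (1.34) and Psmd6 (1.10). Psmd8 was at 2.03 without control 1 and at 0.66 without control 2, where it was not called. Psmd6 lost the call without control 2 (0.86), after quantile normalization (0.98) and with numbered arrays only (0.95).

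Psmd14 and Psmd7 thus both rose, and 5 genes of the base and lid were not called. Psmd13 (0.84), the ubiquitin receptor Psmd4 (0.75) and the scaffold Psmd1 (0.56) passed the adjusted p alone. Psmd3, a lid subunit, gave 884 and 773 on the controls and 613 in gammaD1 through a median of 678 to 1000 in A2C12 in the lines. The groups overlapped (log2 difference -0.18, SE 0.18, limma adjusted p = 0.38), and the sign was positive after centring arrays on their medians. For Psmd11 the probe sets disagreed: the brightest gave -0.01, another of nearly the same brightness 1.17, and a dim one -1.42. No direction is therefore given for Psmd11. Psmd2, the other large scaffold of the base, was too dim to be tested, with line signals of 9.19 to 38.8.

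The assembly factors, chaperones that build the core (Psmg genes) or the base (Psmd5, Psmd9 and Psmd10) and leave, split in direction. Of 7, 4 were called higher: Psmg1 (log2 difference 1.79, SE 0.19) and Psmg2 (1.57, SE 0.21), which act as a pair, Psmd5 (1.07) and Psmd10 (1.01). Without control 1, Psmd5 (0.96) and Psmd10 (0.92) were not called. Psmd5 also lost the call after quantile normalization (0.96), and both lost it with numbered arrays only (0.68 and 0.57). Psmg4 (0.00) and Psmd9 (-0.18) were not called. Psmg3, the partner of Psmg4, was the one gene outside the inducible set called lower. It gave 301 and 412 on the controls and line means from 84.1 in B3 through a median of 102 to 154 in betaD10. All line means lay below both controls (log2 difference -1.48, SE 0.21, limma adjusted p = 1.5e-05). The single array of highest signal among the tumour arrays, A2B1 replicate 1, gave 264, while the other A2B1 array gave 29.0. A dimmer probe set of Psmg3 stood at -0.56 and did not pass, and centring arrays on their medians brought the main one to -0.95, under 2-fold.

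The activators outside the interferon-induced pair, Psme3 of the nucleus (log2 difference 0.26) and Psme4 (0.37), were not called. Of the interacting proteins, Psmc3ip, which acts in homologous recombination, was called higher from a low level (22.1 and 35.2 on the controls, 107 ± 40.1 (SD, n = 11) in the lines, log2 difference 1.13, and 0.98 without control 1, no longer called). Psme3ip1 stood at 0.92 and passed the adjusted p alone.

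Other genes of the ubiquitin and proteasome pathway were taken from a list. Of 28 listed partners (ubiquitin genes, shuttle factors, deubiquitinating enzymes, the segregase Vcp and regulators of proteasome genes), 16 were measured and tested. Among them 1 was called higher and 1 lower (16.7% and 21.3% of all genes), with a median log2 difference of 0.29. The one called higher was Akirin2, which carries proteasomes into the nucleus, from 845 and 707 on the controls to 1687 ± 170 (SD, n = 11) in the lines (1.08, SE 0.15). The one called lower was Nfe2l1, the transcription factor that raises proteasome genes when proteasomes are short, from 965 and 1040 to 374 ± 63.6 (-1.37, SE 0.18, limma adjusted p = 9.5e-06). Its relative Nfe2l2 stood at -0.81, and Pomp, the core assembly factor named outside the Psm scheme, at -0.10.

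The spread between lines was described next. The median over the 40 of the SD of line means was 0.22 on the log2 scale, beside 0.26 over all tested genes. In a moderated F-test among the 11 lines, 0 of the 40 passed an adjusted p of 0.05, against 3.71% of all genes, and 2 of the 4 inducible subunits and activator passed. Over all 44, 11 had an unadjusted p under 0.05. The share of all genes at that threshold was not counted, so this count says nothing particular to the members. Psmd6 (limma F-test adjusted p = 0.068) and Psme3ip1 (0.069) came nearest among the 40. A2C12 was the highest line for 14 of the 40 and betaD5 for 9, while A2B1 and gammaD1 were each the lowest for 7. For these positions, shares of all genes were not counted, and the counts alone mark out no line. Taken in pairs across the 11 lines, the 40 genes had a median Pearson r of 0.09 over 780 pairs (range -0.87 to 0.92). This is a description, since the pairs share arrays and scaling.

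Each line was also compared with the control singly. A2C12 had 24 of 40 called higher (18.5% of all genes), betaD5 22 (17.2%), gammaA3 22 (17%) and gammaD12 21 (15.8%). The lines betaD10 and cRAF_cMYC each had 20 (16.2% and 17.3% of all genes), and B3 and gammaA7 each had 19 (17.7% and 16.9%). A2B1 had 18 (13.9%), gammaD1 18 (16.4%) and gammaB8 16 (17.4%). The share of the 40 was above that of all genes in every line. The order of lines was not firm: without control 2, A2C12 had 14 and betaD5 and betaD10 had 17 each, and after centring arrays on their medians gammaB8 had 29 and cRAF_cMYC 33. Shares of all genes in each line were not computed under these alternatives. Over the mean of the lines, 31.6% of all probe sets were called higher after that centring. With the main settings, the median log2 difference of the 40 ran from 0.83 in A2B1 to 1.18 in gammaD12. The lines share the same control arrays, so these counts are not independent of each other. The arrays of A2B1 differed, with a median log2 level over the 40 of 10.08 on replicate 1 and 10.45 on the unnumbered array. The unnumbered array was also the highest in A2C12 (10.74, numbered 10.44 and 10.48), cRAF_cMYC (10.58, 10.37 and 10.45), gammaA7 (10.59, 10.42 and 10.48) and gammaB8 (10.58, 10.42 and 10.40). In B3 it was not (10.40, 10.43 and 10.43). The titles of the 5 lines with 1 array carry no replicate number either, and whether their counts share this difference was not tested.

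**Figure D2:**
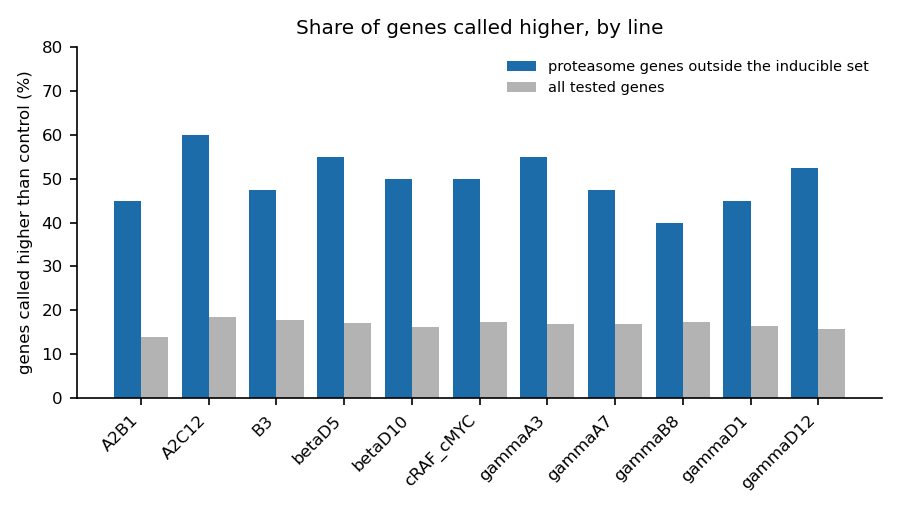
Share of genes called higher than control in each tumour line, in percent: blue bars, the 40 tested proteasome genes outside the inducible set; grey bars, all 5825 tested genes. The blue bars stand above the grey ones in all 11 lines, from 16 of 40 in gammaB8 to 24 of 40 in A2C12.

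Of the inducible subunits, Psmb8 and Psmb9 fell in the lines and Psmb10 was not called. Psmb8, which replaces Psmb5, gave signals of 546 and 799 on controls 1 and 2. Both A2B1 arrays were at 191 and 181, and the line means of the other 10 lines ran from 4.38 in gammaA3 to 30.3 in gammaD1. All 20 arrays of those 10 lines lay below the median signal of their array, where the order of lines cannot be read. The log2 difference over the 11 lines was -3.71 (SE 0.46, limma adjusted p = 4.8e-06), with every line below both controls. Since most line signals were near the floor, its size depended on the offset, at -5.31 with an offset of 1 and -2.61 with 100.

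Psmb9, which replaces Psmb6, gave 175 and 350 on the controls. In A2B1 it gave 96.6 on replicate 1 and 43.4 on the unnumbered array, and in the other lines the means ran from 3.24 in betaD5 to 11.1 in gammaA7. The highest single array outside A2B1 was gammaA7 replicate 2, at 24.9. Again all 11 lines lay below both controls, with a log2 difference of -2.77 (SE 0.31, limma adjusted p = 1.9e-06), -5.03 with an offset of 1 and -1.67 with 100. Psmb8 and Psmb9 were lower than control in each of the lines taken singly, A2B1 included (-1.67, SE 0.30, and -1.51, SE 0.29). Both genes passed the filter for testing only through arrays where they were high, the controls and at most A2B1. A filter of 12 arrays left both out. Their p-values are therefore no independent support for the fall.

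Psmb10, which replaces Psmb7, gave 516 and 530 on the controls, and line means of 364 in gammaA3 through a median of 523 to 865 in A2B1. Lines lay on either side of the controls, with 4 above both and 5 below both, and the log2 difference was -0.01 (SE 0.24, limma adjusted p = 0.96), or 0.52 after centring arrays on their medians. Psme1 gave 686 and 1022 on the controls, and line means of 652 in betaD5 through a median of 940 to 2347 in A2B1. The groups overlapped, and the log2 difference was 0.20 (SE 0.32, limma adjusted p = 0.59), or 0.74 after that centring. Over the mean of the 11 lines, neither gene reached 2-fold under it.

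**Figure D3:**
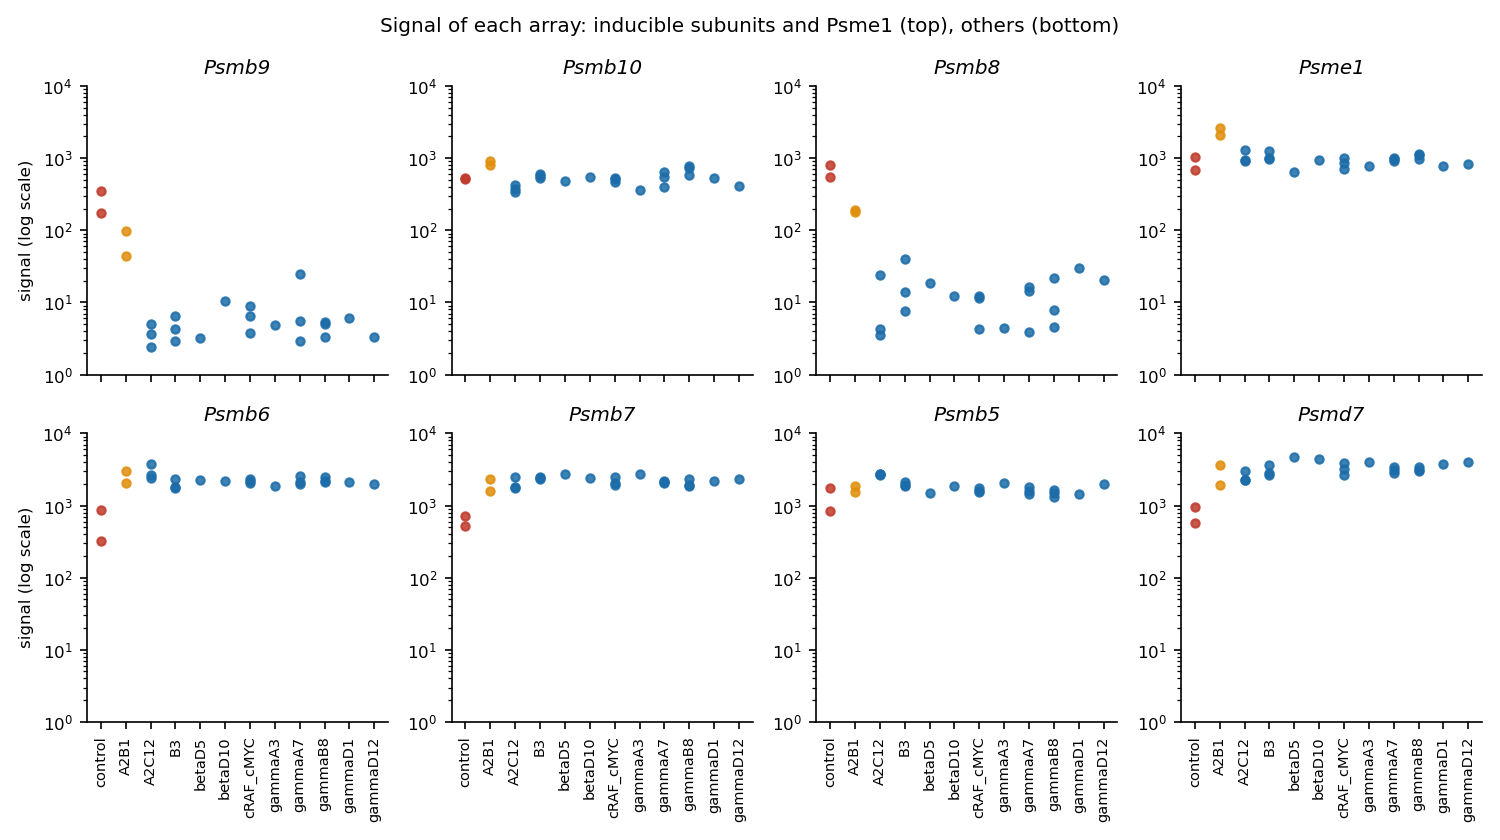
Signal of each array on a log scale, for the control (red), A2B1 (orange) and the other 10 lines (blue); the top row holds Psmb9, Psmb10, Psmb8 and Psme1, the bottom row the constitutive subunits they replace and Psmd7. Psmb8 falls from 546 and 799 on the control arrays to between 4.38 and 30.3 in the line means outside A2B1, while Psmb10 stays between 364 and 865 in the line means.

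The exchange of catalytic subunits was followed within each array, as the log2 level of an inducible subunit minus that of the constitutive one it replaces. Probe sets differ in brightness, so only its shift between groups can be read. Where the inducible subunit is near the floor, the size of the shift depends on the offset added before the log. For Psmb8 minus Psmb5 the controls gave -1.63 and -0.09, and the lines -5.09 ± 0.80 (SD, n = 11). For Psmb9 minus Psmb6 they gave -2.12 and 0.12, against -5.76 ± 0.41. For Psmb10 minus Psmb7 they gave -0.43 and 0.01, against -2.06 ± 0.45. All 3 differences were lower in every line than on both controls. The shifts, lines minus control, were -4.23, -4.76 and -1.85. Each had p = 0.0256 in an exact two-sided permutation test, the smallest p that 78 assignments allow, and the same value after adjustment over the 3. That p follows from every line lying below both controls and adds nothing to that order. For Psmb8 and Psmb9, which passed the filter only through arrays where they were high, it is no independent support for the fall. With offsets of 1 and 100 the shifts were -5.84 and -3.11 for Psmb8 minus Psmb5, -7.09 and -3.52 for Psmb9 minus Psmb6, and -1.90 and -1.74 for Psmb10 minus Psmb7. Averaging the probe sets of each gene gave -3.29 for Psmb8 minus Psmb5. Of Psmb10 and Psmb7, Psmb7 rose while Psmb10 stood at -0.01.

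**Figure D4:**
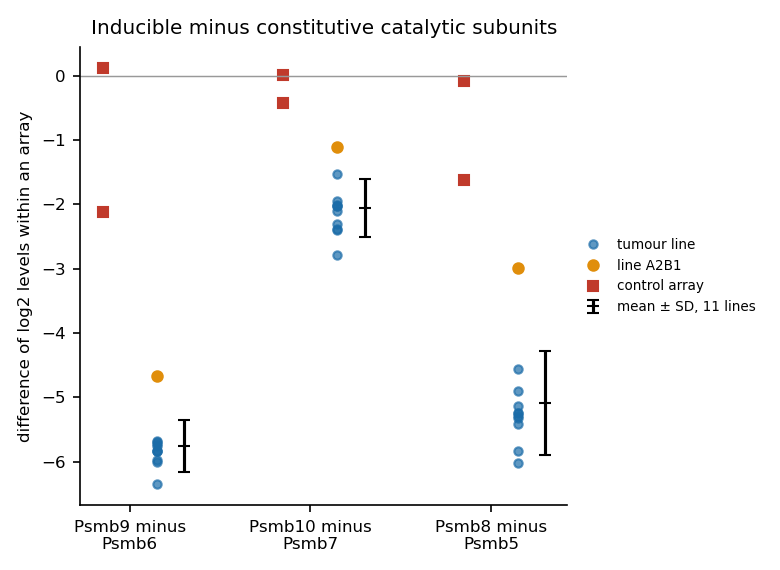
Difference between the log2 levels of each inducible subunit and the constitutive subunit it replaces, within an array: red squares, control arrays; points, line means with A2B1 in orange; black bars, mean ± SD of 11 lines. The line means lie below both control arrays in all 3 pairs, and A2B1 is the line nearest to them.

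Line A2B1 had the highest level of the 11 lines for all of Psmb8, Psmb9, Psmb10 and Psme1. Over the mean of the other 10 lines its log2 level was higher by 0.78 for Psmb10 and 1.36 for Psme1. No such difference is given for Psmb8 and Psmb9, whose signals in the other lines were near the floor. Among lines, the moderated F-test passed for Psmb8 (limma adjusted p = 0.0033) and Psme1 (0.0231) and not for Psmb10 (0.0501) or Psmb9 (0.0698). Psmb8 and Psmb9 passed the filter for testing only through the controls and at most A2B1, so their p-values are no independent support here. In the arrays with replicate numbers of 5 lines, which hold none of A2B1, the F-test gave adjusted p = 0.55 for Psmb8, 0.34 for Psme1, 0.44 for Psmb9 and 0.0103 for Psmb10. Against the control, Psme1 in A2B1 was higher, at 2604 on replicate 1 and 2090 on the unnumbered array (log2 difference 1.44, SE 0.24, limma adjusted p = 1.5e-04). Psmb10 gave 920 and 811 on the same arrays (0.69, SE 0.21, limma adjusted p = 0.015), under 2-fold, and was called at 1.14 after centring arrays on their medians.

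Correlations across the 11 lines were also described. For Psmb8 and Psmb9, Pearson r was 0.92 and Spearman rho 0.07; without A2B1 alone r was -0.18, and without A2B1 and gammaD1 -0.30, so the high r rested on A2B1. For Psmb10 and Psme1, r was 0.73 and rho 0.73; without A2B1 they were 0.37 and 0.64, and r was 0.26 without A2B1 and gammaA3. For Psme1 and Irf1, a transcription factor induced by interferon, r was 0.56 and rho 0.79, with 0.84 and 0.79 without A2B1, and r was 0.70 without A2B1 and betaD5. These are descriptions over 11 line means that share scaling and, in part, low signals.

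A list of other class I antigen processing genes was measured on the same arrays. It also held regulators: the interferon receptor genes Ifngr1 and Ifngr2 and the transcription factors Irf1 and Irf8. Of 17 listed, 12 were tested: 8 were called lower in the lines (21.3% of all genes) and 0 higher (16.7%), and the median log2 difference was -1.19. Myeloid markers fell on the same arrays, from summed signals of 49877 and 29367 on the controls to 203 to 399 in the lines, and their part in this count was not tested. Irf8, which many leukocytes express, went from 402 and 803 on the controls to 11.3 ± 4.21 (SD, n = 11) in the lines. Being dim in every line, it could pass the filter for testing only through the control arrays. The peptide transporter genes Tap1 (-1.01) and Tap2 (-2.03), neighbours of Psmb9 and Psmb8, were both called lower. The class I heavy chain genes H2-K1 (-3.84) and H2-D1 (-2.88) were called lower too, as were Irf8 (-3.81), the chaperone Canx (-1.73), Ifngr1 (-1.34) and Irf1 (-1.04). Of those not called, B2m, the light chain of class I, stood at -0.19, Ifngr2 at -0.05, Tapbp at -0.92 and Pdia3 at 0.69.

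A2B1 was also the highest line for 6 of these 12 genes, where it was the highest for 19% of all tested genes (1108 of 5825). They were B2m, H2-D1, H2-K1, Tap1, Tap2 and Tapbp. H2-K1 gave 1804 in A2B1, while the other lines ran from 145 to 703 and the controls gave 5127 and 6247. Tap1 gave 259 in A2B1 and 54.3 to 201 in the others, with 205 and 392 on the controls. For B2m, A2B1 (7734) was above both controls (4940 and 3576). Of these 6, the F-test among lines passed for H2-D1 (limma adjusted p = 0.0075). For H2-K1 it gave 0.051. Irf1 in A2B1 (264) lay within the range of the other lines (91.3 to 333).

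**Figure D5:**
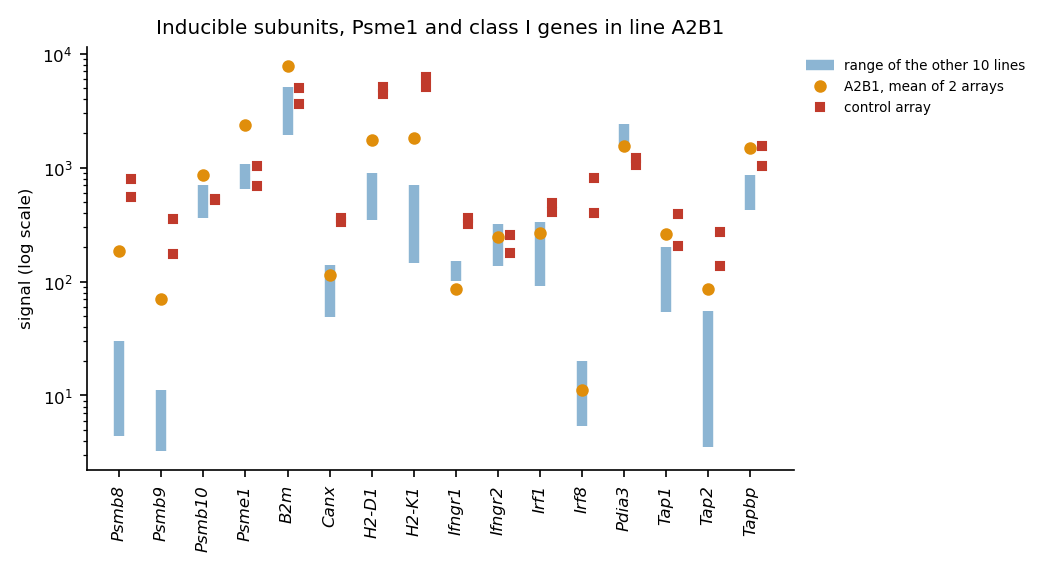
Signal on a log scale of the inducible subunits, Psme1 and the 12 tested genes of the class I antigen processing list, regulators included: orange points, A2B1 (mean of 2 arrays); blue bars, the range of line means of the other 10 lines; red squares, the 2 control arrays. A2B1 lies above the bar for all of Psmb8, Psmb9, Psmb10 and Psme1 and for B2m, H2-D1, H2-K1, Tap1, Tap2 and Tapbp.

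Leukocytes carry high levels of the inducible subunits, and leukocyte genes were read in the control preparations, which had been enriched on a Percoll density gradient. All 10 tested of 11 myeloid markers were called lower in the lines (21.3% of all genes), with the sums given above. All 5 tested of 8 measured lymphoid and pan-leukocyte markers were called lower. The 8 measured had summed signals of 2198 and 5790 on the controls and 91.9 to 163 in the lines. Most markers dim in every line were tested only where both control arrays were high, so these counts were largely fixed by the filter. An exception was Cd79a, tested at 39.7 on control 1 and 629 on control 2, with line means of 10.8 to 44.0. Marco, high on control 1 alone, and Cd79b, high on control 2 alone, were not tested. On control 1 the T cell marker Cd3g was at 1.70 and Cd3e at 19.4, and the B cell marker Cd79b at 12.2; on control 2 they were at 67.3, 93.8 and 532. Control 2 was higher than control 1 for both Psmb8 and Psmb9 and for the lymphoid sum, and lower for the myeloid sum. The part of these cells in the control levels of Psmb8, Psmb9 and the class I genes was not tested. The leukocyte marker Ptprc was at 0.661 to 6.19 in all 11 lines, A2B1 included, against 602 and 1119 on the controls. Other markers of these lists were highest in A2B1 among the lines, at low signals. They were Chil3 (26.3), Lyz2 (15.6), Mpeg1 (50.2), Coro1a (25.2), Cd3e (12.1) and Ms4a1 (58.5). For the rest of both lists another line was highest. The part of such cells in the levels of A2B1 was not tested.

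The promoters of 39 of the 46 genes were found in the RefSeq table; Psmb1, Psmb2, Psmb7, Psmc3, Psmd3, Psmd7 and Psmg2 were not. Short motifs, 5 in all, were searched on both strands in these windows and in those of all 27025 genes of the table. TTTCNNTTT, the core of the interferon-stimulated response element, was in 15.4% of member windows and 12.1% of all. TTCNNNGAA, a STAT site, was in 7.69% and 9.55%. TGACNNNGC, the core of the antioxidant response element bound by Nfe2l1 and Nfe2l2, was in 15.4% and 14%. CACGTG, the E-box that Myc can bind, was in 12.8% and 8.09%, and CCAAT, the NF-Y box, in 38.5% and 41.1%.

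In the printed windows, the STAT match of Psmb8 (TTCCCAGAA) begins at -97 relative to the start and the CCAAT box of Psmb9 (ATTGG, its reverse complement) at -8. The interferon core of Psme1 (TTTCGCTTT) begins at 9, after the start. The antioxidant core of Psmb6 (TGACGGAGC) begins at -9 relative to the start on which its window was set, which is after the gene's listed start. A match is a description of these letters, and motifs of different names can overlap in a window.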

How the data were processed

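The authors deposited 1 intensity signal per probe set and array on a linear scale, made with GCOS (version not given) per the submitters' processing notes. With 2% of probe sets trimmed from either end, all 24 arrays had nearly the same mean, so they had been scaled to it. The sources used here give neither background correction nor detection calls. The number of arrays limits the precision.

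Of 12422 probe sets without Affymetrix controls, 10833 had 1 symbol in the platform annotation, 396 several and 1193 none; those with several or none were tested but not named. Levels were log2(signal + 32). The 7670 probe sets above the array's median on at least 2 arrays were tested with limma 3.58.1 (R 4.3.3). The 11 line means were fitted against 2 control arrays, and 12 group means were fitted to 24 arrays for each line's contrast and for the F-test among lines. Calls needed a difference of at least 2-fold and a Benjamini-Hochberg adjusted p under 0.05 over all tested probe sets. Lines with 1 array are assumed to vary like the others. The fits were tested on simulated data with known changes.

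The members and the lists of partner, class I and marker genes were chosen with earlier results of these data known. By the rule for named genes, array or line ranges were given for the inducible and replaced subunits, Psme1, the 3 largest rises, the 3 largest falls and the 3 smallest F-test p-values. Alternatives were other scalings, offsets, filters, variance models and array choices, a block for the replicate number, and leaving out each line, control or array. Leaving out arrays other than A2B1 replicate 1, and line A2B1 from correlations, was chosen after seeing the data. Sequences and positions are RefSeq's on GRCm38.p6.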

Additional observations from a re-analysis of the deposited data

Results flagged for a closer look

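Psmb8 and Psme1 passed the F-test among the tumour lines, whose p rests on the spread of repeat arrays. In limma's moderated F-test over 11 lines the adjusted p was 0.00327 for Psmb8 and 0.0231 for Psme1. A2B1 was the highest line in both. Psmb8 gave 191 and 181 on its 2 arrays and line means of 4.38 to 30.3 in the other 10 lines, and Psme1 gave 2604 and 2090 against line means of 652 to 1069. Without A2B1 replicate 1 the adjusted p was 0.0457 for Psmb8 and 0.134 for Psme1. Psmb8 did not pass with an offset of 1, and neither gene passed in the numbered arrays of 5 lines, which hold no A2B1 array. Psmb8 passed the filter for testing only through the controls and at most A2B1, so its p is no independent support.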

How the results depend on the processing

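Of the 44 tested members, 25 kept their call under all 43 alternatives run, among them 12 of the 22 called higher in the lines. Psmb8 and Psmb9 stayed called lower under each alternative that tested them, and the stricter filter left them out; no called value changed sign. After centring arrays on their medians, which moved the median of all probe sets from -0.05 to 0.49, the count of the other members called lower was 0 and 30 (75%) were higher, against 31.6% of all probe sets, and their median log2 difference was 1.56. With quantile normalization 17 (42.5%) were higher, against 21.8%, and the median of all probe sets was 0.18. The median difference of the members was 0.90 with an offset of 100 and 0.91 with numbered arrays only, where 14 were called higher. Leaving out lines, controls or arrays gave medians from 0.81 (without control 2) to 1.14 (without control 1).

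The count of members past the F-test among lines moved most. It was 2 as reported, 1 with an offset of 1 (Psmb8 at adjusted p = 0.089), 5 with an offset of 100, 9 in the 6 lines with several arrays and 9 in the numbered arrays of 5 lines, where no A2B1 array remained. Leaving out single arrays gave counts from 1 to 8. It was 1 without A2B1 replicate 1 or either numbered A2C12 array, 8 without the unnumbered A2B1 array, and 4 without gammaA7 replicate 2 or the unnumbered gammaB8 array. Shares of all probe sets past the F-test under these settings are not given here, so no change particular to the members can be read. The cause was not tested. The shift of Psmb9 minus Psmb6 was -5.88 without control 1 and -3.64 without control 2. With 1 control the exact test cannot go below 0.167.

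With the replicate number as a block, 23 other members were called higher (median 1.14), 1 was lower and 3 members passed the F-test, Psmd6 in addition. In that block both controls and the lines with 1 array were counted as unnumbered. Unnumbered arrays deviated together in all 10 pairs (r from 0.17 to 0.54). Arrays numbered 1 (0.061 to 0.67) and 2 (0.059 to 0.70) included pairs under 0.1, so the numbers as a whole were not shown to pair the samples. The block changed no call of Psmb8, Psmb9, Psmb10 or Psme1. Signals near the floor limit Psmb8 and Psmb9 in 10 lines.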
